A study of Homo sapiens with 183 samples.

Results

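The 10 genes described here encode inflammatory signals that tumor cells release: the neutrophil-attracting chemokines CXCL1, CXCL2, CXCL3, CXCL5 and CXCL8, the chemokine CCL20, the cytokines IL1A, IL1B and IL6, and the growth factor CSF2. They were taken by name, not by any measured value, from the 19875 genes of each of 8 tables, and all 10 were found in every table. The tables hold 183 RNA-seq libraries from 9 human cancer cell lines, 5 of them pancreatic (CFPAC-1, BxPC-3, SUIT-2, AsPC-1 and T3M-4). In 127 libraries, cells were harvested 5 days after a knockout by Cas9 of KLF5 (a transcription factor of epithelial cells), of RUVBL1 or RUVBL2 (partner AAA+ ATPases that the study links to KLF5), of CDK1, RPA3, CHD4 or SERPINB5, or after an sgRNA against the ROSA26 locus (sgRosa), the control. In 56 libraries, cells had received CB-6644, an allosteric inhibitor of the RUVBL1/2 ATPase, or its solvent DMSO for 24 h.

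The knockouts of one line that share sgRosa libraries are called an experiment. All knockout cells, sgRosa cells included, carry Cas9 and an sgRNA delivered by lentivirus, and the labels do not say which sgRNA a library received. The study used more than 1 sgRNA for KLF5, RUVBL1, RUVBL2 and ROSA26, and it lists 1 each for CDK1 and RPA3. Libraries of a group may thus share an sgRNA, while the tests treat them as independent. In AsPC-1 and T3M-4 the CB-6644 libraries come from cells that stably express an empty vector (EV), RUVBL1 A62T or RUVBL2 dF109, variants meant to resist the inhibitor, and each of these constructs has 3 CB-6644 libraries and 1 DMSO library. T84 (colorectal cancer), A-375 (melanoma), H1048 (small-cell lung cancer) and RH30 (rhabdomyosarcoma) were treated without a construct, with 4 libraries of each kind. The study describes the knockout libraries as biological replicates, and nothing read here says whether the CB-6644 libraries of a group are separate cultures, so p-values measure only the spread between these libraries. In bulk RNA of this kind, fewer cells that make a transcript and less of it per cell cannot be told apart.

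CXCL1, CXCL2, CXCL3, CXCL5 and CXCL8 are ligands of the receptors CXCR1 and CXCR2 and draw neutrophils, whereas CCL20 binds CCR6 on lymphocytes and dendritic cells, and CSF2 drives the growth of myeloid cells. IL1A and IL1B act through IL1R1 to switch on NF-kappaB, and NF-kappaB in turn is a well-known inducer of the chemokines, of IL6 and of IL-1 itself. Many of these transcripts also carry AU-rich elements in the 3′ UTR and are short-lived.

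The promoter sequences are shown because the 5 CXCL genes share 1 letter string there. CXCL8, CXCL1, CXCL5, CXCL3 and CXCL2 lie in this order on chromosome 4 (hg38), from chr4:73740519-73743716 (CXCL8, + strand) to chr4:74097040-74099196 (CXCL2, − strand), and IL1A (chr2:112773925-112784493, − strand) and IL1B (chr2:112829751-112836816, − strand) are neighbours on chromosome 2. IL6 lies at chr7:22725884-22732002, CCL20 at chr2:227805739-227817564 and CSF2 at chr5:132073789-132076170, all on the + strand. In the following sequences, taken from RefSeq's promoter table (GRCh38.p14, 5′ to 3′ on the gene's strand), capitals mark a match to the NF-kappaB consensus or to GGAATTTCC, which overlap each other. For CXCL1, CXCL2 and CXCL5 the bases −120 to −41 from the RefSeq start of transcription are given. For CXCL3, CXCL8, IL6 and CCL20 only the 30 bases around the match are given, because the longer windows overlap the gene as GENCODE v44 annotates it. The 30 bases of CXCL3, IL6 and CCL20 lie within that annotation themselves, and those of CXCL8 lie outside it.
CXCL1 (chr4:73869273-73869352, +): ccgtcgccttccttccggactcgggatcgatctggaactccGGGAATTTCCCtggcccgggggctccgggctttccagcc
CXCL2 (chr4:74099236-74099315, −): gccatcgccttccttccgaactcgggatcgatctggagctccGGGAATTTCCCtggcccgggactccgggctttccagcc
CXCL5 (chr4:73998718-73998797, −): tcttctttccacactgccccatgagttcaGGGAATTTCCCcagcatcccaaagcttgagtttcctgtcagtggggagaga
CXCL3 (chr4:74038749-74038778, −): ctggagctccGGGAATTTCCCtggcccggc
CXCL8 (chr4:73740467-73740496, +): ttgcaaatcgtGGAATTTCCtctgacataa
IL6 (chr7:22727117-22727146, +): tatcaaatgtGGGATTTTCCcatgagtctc
CCL20 (chr2:227813753-227813782, +): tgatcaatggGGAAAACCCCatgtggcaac

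The match began between −91 (CXCL5, CXCL8) and −73 (IL6) from the start of transcription. Over the 300 bases of each promoter and both strands, GGAATTTCC occurred in the 5 CXCL genes of the 10 and in 0.461% of all 35116 promoters, and the NF-kappaB consensus in 6 of the 10 (CCL20, CXCL1, CXCL2, CXCL3, CXCL5 and IL6) and in 5.91% of all. Neither was found in the promoter windows of IL1A, IL1B or CSF2. A letter pattern of the KLF family, CCNCNCCC, occurred in 6 of the 10 but also in 56.2% of all promoters, the AP-1 pattern TGANTCA in 2 (CXCL8, IL1A; 7.71% of all), and TATAAA in 3 (CCL20, CXCL8, IL1A; 11.5% of all). In the 3′ UTR of the canonical transcript, the AU-rich pentamer AUUUA, read as ATTTA, occurred between 4.38 (IL1A) and 25.2 (CSF2) times per kilobase, with a median of 8.80 over the 10 genes and 1.67 over 18154 genes.

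Values are TPM, a share of all transcripts that allows for transcript length. Changes were tested with limma on log2(TPM + 1), over all genes whose mean in the fitted libraries reached 1 TPM, and a gene was called where the Benjamini-Hochberg adjusted p was under 0.05. Fold changes are on this log2(TPM + 1) scale, which understates the change of low genes. CXCL1, CXCL2 and CXCL3 are close relatives, so the split of reads among them is uncertain. In 5 cases a member was called although its mean reached 1 TPM only through the group in which it was high (IL1A after KLF5 knockout in SUIT-2, IL6 in T3M-4 experiment 1, CSF2 after both RUVBL knockouts in T3M-4 and after CHD4 knockout). Such a member had to differ, so its levels are given as a description and the counts are given without it as well.

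Several libraries did not match what their labels would lead one to look for, and the sgKLF5 results that rest on them are given with and without them. KLF5 mRNA was not lower in most sgKLF5 groups. It was called lower only in CFPAC-1 (−0.41, limma adjusted p = 0.00852). It was called higher in T3M-4 experiment 2 (0.78, adjusted p = 1.73e-05) and AsPC-1 experiment 1 (0.53, adjusted p = 0.0462). SERPINB5, which the study treats as a KLF5 target, was lower in the sgKLF5 groups. RUVBL1 and RUVBL2 mRNA were lower after their own knockouts. CHD4 mRNA was not, at 61.7 to 97.5 TPM in sgCHD4 against 65.1 to 69.1 TPM in sgRosa. CDK1 mRNA in AsPC-1 sgCDK1 was at 122 to 134 TPM against 135 to 156 TPM in sgRosa and was not called lower (−0.19, limma adjusted p = 0.202). RPA3 mRNA was called lower in sgRPA3 of T3M-4 experiment 2 (−0.34) and BxPC-3 experiment 2 (−0.50), but not in the other sgRPA3 groups. In CFPAC-1, the libraries labelled sgCDK1 held CDK1 at 194 to 207 TPM (sgRosa 206 to 236) and those labelled sgRPA3 held it at 81.0 to 91.9 TPM, and sgRosa replicate 2 had SERPINB5 at 59.8 TPM, like sgKLF5 (57.6 to 69.3) and unlike the other sgRosa libraries (169 to 193). In T3M-4 experiment 1, sgKLF5 replicate 2 stood apart in KLF5 (92.1 TPM, 334 to 482 in the others). EPCAM and the keratins KRT8, KRT18 and KRT19 were expressed in the pancreatic lines and T84. H1048 also expressed EPCAM (median 324 TPM), KRT8 (450 TPM) and KRT18 (512 TPM), whereas its KRT19 was near 0 (0.87 TPM). Of tuft-like lung cancers it expressed POU2F3 (median 382 TPM) and AVIL (117 TPM) but almost no TRPM5 (0.070 TPM). A-375 held KRT18 at a median of 519 TPM and KRT8 at 80.5 TPM. A-375 expressed SOX10 of the melanocyte lineage (206 TPM), but its pigment genes PMEL (2.13 TPM) and MLANA (1.44 TPM) were lower than in SUIT-2 (PMEL, 14.3 TPM) and H1048 (MLANA, 1.83 TPM). RH30 expressed MYOD1 of muscle. Of the 6 leukocyte markers searched, CD3E was at 0 in every control library of AsPC-1 experiment 1, SUIT-2, CFPAC-1 and T84, whereas LYZ, which some epithelia also make, had a median of 111 TPM in CFPAC-1, 41.6 in T84 and 10.8 in SUIT-2, and CD14 of 4.67 TPM in AsPC-1 and 4.52 in CFPAC-1. PTPRC had a median of 8.73 TPM over all T3M-4 libraries (4.33 to 23.2), and its lowest median was 1.16 TPM, in SUIT-2. CSF1R had a median of 8.36 TPM in RH30.

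In control cells the 9 lines made very different sets of these signals. T3M-4 and BxPC-3 held the IL-1 genes: IL1A had a median of 168 TPM in T3M-4 (95.6 to 280 over 9 libraries) and 146 TPM in BxPC-3 (129 to 190 over 6 libraries), and IL1B 150 TPM (34.8 to 279) and 163 TPM (157 to 212). In A-375 IL1A was at 4.13 TPM and IL1B at 5.53 TPM, and IL1A was lower than this in every other line by median. CFPAC-1 held most CXCL5, at 272 TPM (107 to 319 over 4 libraries), against 9.14 TPM in BxPC-3 and at most 1.84 TPM elsewhere, and it was the only line with a median IL6 above 2 TPM (21.1, from 18.6 to 36.2). Its CXCL8, at 99.7 TPM (85 to 136), overlapped that of T3M-4, at 78.2 TPM (23.9 to 103). CXCL1 was highest by median in A-375 (78.4 TPM), T3M-4 (50.3, from 17.5 to 76.7), CFPAC-1 (42.4, from 38.1 to 113) and BxPC-3 (33.4), and the ranges of T3M-4 and CFPAC-1 overlapped. CCL20 was at 37.8 TPM in T3M-4, 26.1 in T84 and 13.9 in AsPC-1. CSF2 reached a median of 5.31 TPM in CFPAC-1 and at most 1.34 TPM elsewhere. CXCL8 was lowest in SUIT-2 and RH30, at 1.13 and 0.85 TPM. The lines lie in separate tables, so these levels are a description with no test.

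**Figure D1:**
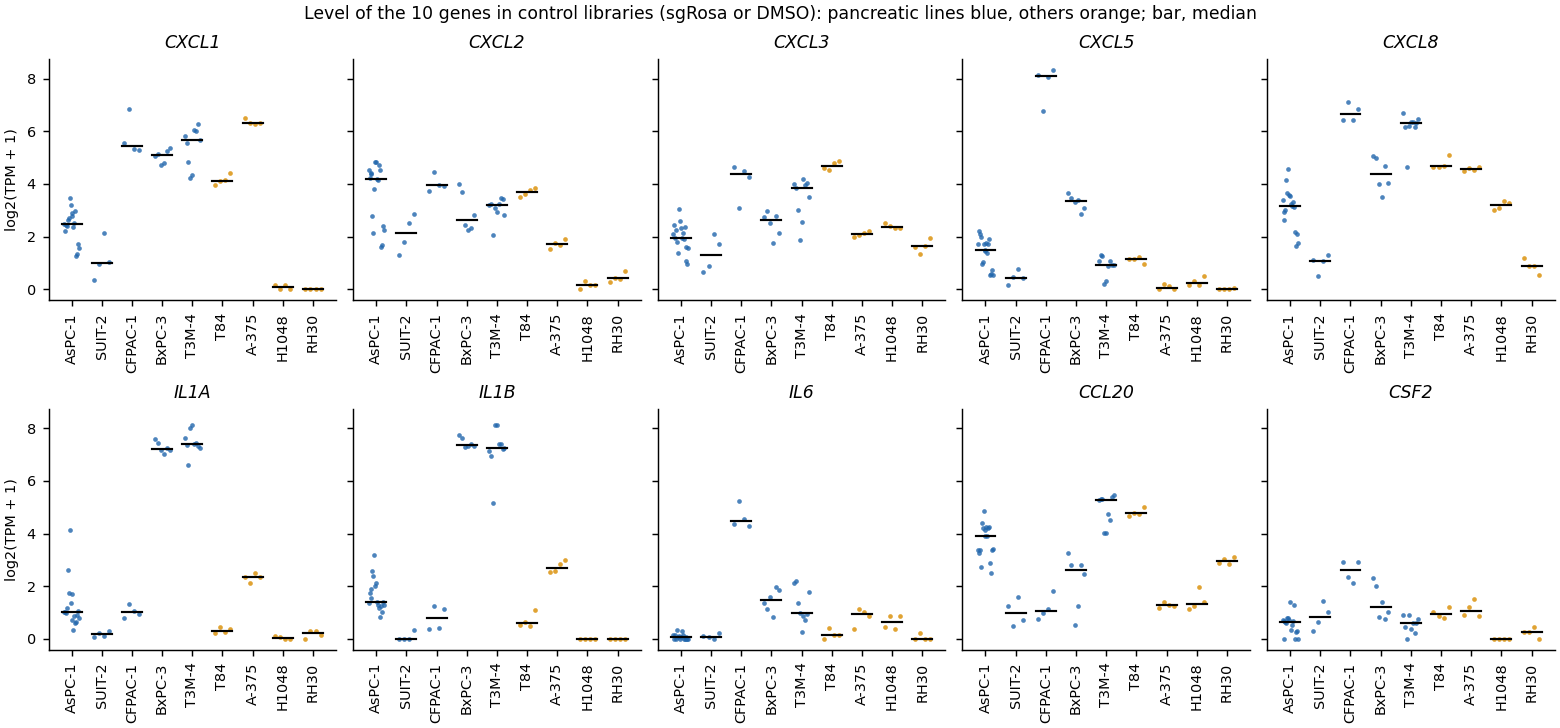
Level of the 10 genes in control libraries (sgRosa or DMSO) of the 9 lines, in log2(TPM + 1). IL1A and IL1B are high in T3M-4 and BxPC-3, at medians of 146 to 168 TPM, and CXCL5 is high in CFPAC-1, at 272 TPM.

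CXCL8 had the highest mean control level over the lines. Across the 9 line means of log2(TPM + 1), and among 12221 genes, the levels most like it by Pearson correlation were those of EMC4 (0.922), RAB7A (0.919), EMC7 (0.909), IKBKE (0.900) and OAS3 (0.882). These are 9 points from separate tables, and the correlations are a description only.

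In the first experiments after KLF5 knockout CXCL1 rose in BxPC-3, T3M-4 and AsPC-1, and CXCL8 in those lines except T3M-4 and in CFPAC-1, with a call in SUIT-2 that most alternatives lost. CXCL5 fell in CFPAC-1. CCL20 rose in T3M-4 and BxPC-3 and IL6 in BxPC-3. IL1A and IL1B went the other way in those lines and fell. The number of members called was 4 of the 8 tested in AsPC-1, all higher (25.9% of all genes tested were called), 2 of 7 in SUIT-2, both higher (3.94% of all genes), 6 of 8 in T3M-4, with 4 higher and 2 lower (5.72%), 9 of 10 in BxPC-3, with 7 higher and 2 lower (16.2%), and 3 of 9 in CFPAC-1, with 2 higher and 1 lower (16.2%). Without members that reached the filter only through sgKLF5, it was 5 of 7 for T3M-4 and 1 of 5 for SUIT-2. The median change of the members tested was 0.20, 1.15, 1.55, 1.53 and 0.12 in this order, beside 0.08, 0.18, −0.22, −0.02 and −0.11 for all genes.

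CXCL1 was at 8.09 and 6.38 TPM in the sgRosa libraries of AsPC-1 and between 13.5 and 17.2 TPM (median 16.4) in the 6 sgKLF5 libraries. The groups did not overlap, and the change was 1.04 ± 0.13 (SE; limma adjusted p = 0.000185). In T3M-4, CXCL1 went from 17.5 and 19.2 TPM to 155, 83.3, 166 and 141 TPM (2.78 ± 0.29, adjusted p = 0.00217). In BxPC-3 it went from 32.7 and 34.1 TPM to 288, 309, 336 and 284 TPM (3.15 ± 0.10, adjusted p = 2.68e-07). Every sgKLF5 library of these lines was above every sgRosa library. In SUIT-2 the sgRosa libraries held 0.286, 0.954, 3.42 and 1.05 TPM and the sgKLF5 libraries 5.38, 3.81, 2.87 and 3.69 TPM, and the difference of 1.15 did not pass (adjusted p = 0.122).

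CXCL8, the main human neutrophil chemokine, was at 10.9 and 10.6 TPM in AsPC-1 sgRosa and at 21.2 to 34.7 TPM (median 22.9) in the 6 sgKLF5 libraries (1.11 ± 0.17, adjusted p = 0.000814). In BxPC-3 it went from 31.9 and 30.7 TPM to 150, 162, 159 and 125 TPM (2.21, adjusted p = 2.56e-06). In CFPAC-1 it went from 86.1, 136, 85 and 113 TPM to 159, 161 and 161 TPM (0.63 ± 0.14, adjusted p = 0.00869). No groups overlapped here, but the distance in CFPAC-1 was small. In T3M-4, CXCL8 was at 71.7 and 80.5 TPM in sgRosa and at 243, 105, 292 and 301 TPM in sgKLF5, and with replicate 2 so far below the rest the difference of 1.51 did not pass (adjusted p = 0.076). In SUIT-2 the change from 0.406 to 1.46 TPM up to 2.04 to 6.98 TPM passed (1.4 ± 0.33, adjusted p = 0.0482), but not when any 1 of 7 of the 8 libraries was left out, nor without a filter (adjusted p = 0.0617) or with a pseudocount of 0.1 (adjusted p = 0.0613).

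Among the other CXCR2 ligands, CXCL2 rose in AsPC-1 (0.36), in T3M-4 (2.07) and BxPC-3 (1.15), and CXCL3 in BxPC-3 (1.41). CXCL5 rose in AsPC-1 (1.06 ± 0.16, from 1.77 and 1.84 TPM to between 3.61 and 5.79 TPM) and in BxPC-3 (2.43, from 11.6 and 9.94 TPM to 67.6, 72.3, 58.2 and 52.3 TPM). In CFPAC-1, where CXCL5 started highest, it fell by 1.2 on the log2 scale (adjusted p = 0.00615). Its sgRosa libraries held 277, 107, 267 and 319 TPM and its sgKLF5 libraries 91.7, 96.9 and 103 TPM, so the groups did not overlap even with sgRosa replicate 2.

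IL6 showed the largest single change of a member in BxPC-3 experiment 1. It was at 1.6 and 1.17 TPM in sgRosa and at 40.5, 36.8, 35.7 and 41.4 TPM in sgKLF5 (4.05 ± 0.14, adjusted p = 3.67e-07). In T3M-4 it was at 0.951 and 0.186 TPM in sgRosa and between 2.04 and 5.38 TPM in sgKLF5, the group through which it reached the filter. In CFPAC-1 the rise of 0.67 passed narrowly (adjusted p = 0.0465) with overlapping groups, because sgRosa replicate 2 held 36.2 TPM where sgKLF5 held 32.1 to 42 TPM. CCL20 rose in T3M-4 (1.70, from 15.1 TPM in both sgRosa libraries to between 32 and 67.2 TPM) and BxPC-3 (1.66, from 8.47 and 5.9 TPM to between 20.01 and 33 TPM).

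The IL-1 genes, the upstream signals of this group, fell in the lines that hold them. In T3M-4, IL1A was at 259 and 280 TPM in sgRosa and at 122, 65.4, 134 and 134 TPM in sgKLF5 (−1.29 ± 0.29, adjusted p = 0.0445), and IL1B at 275 and 279 TPM against 109, 47.8, 108 and 112 TPM (−1.62 ± 0.34, adjusted p = 0.0333). These calls were narrow. IL1A did not pass with a pseudocount of 0.1 (limma adjusted p = 0.0532) or without a filter (adjusted p = 0.0597). At a mean of 5 TPM or more it did not pass either (adjusted p = 0.0545). With only the groups compared, neither IL1A (adjusted p = 0.0839) nor IL1B (adjusted p = 0.069) passed. In BxPC-3, IL1A went from 190 and 172 TPM to 112, 119, 84.9 and 90.3 TPM (−0.84 ± 0.14, adjusted p = 0.0024), and IL1B from 212 and 197 TPM to 96.4, 98.2, 92.5 and 82.7 TPM (−1.14 ± 0.09, adjusted p = 1.38e-05). All sgKLF5 libraries of both lines lay below all sgRosa libraries, while CXCL1, IL6 and CCL20 lay above them in the same libraries. In SUIT-2, IL1A was at 0.227 TPM or less in sgRosa and at 6.48, 9.33, 3.12 and 1.25 TPM in sgKLF5, and it was tested only because of the latter. CSF2, a myeloid growth factor, differed by −0.05 in BxPC-3 and was not called.

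Without T3M-4 sgKLF5 replicate 2, all 8 members tested in that line were called, 6 higher and 2 lower (37% of all genes), and without sgRosa replicate 1, sgRosa replicate 2 or sgKLF5 replicate 1 only 1 was. The latter counts were not set against all genes in the same refits, and with every library 5.72% of all genes were called. Without CFPAC-1 sgRosa replicate 2, 3 members were higher and 3 lower of 9 (21.2% of all genes), with CXCL5 at −1.56 and CXCL8 at 0.76. The summed level of 5 fibroblast markers moved with the result in BxPC-3, at 68.4 to 112 TPM in sgKLF5 and 17.9 to 20.5 TPM in sgRosa, where COL1A1 and COL1A2 were at 1 TPM or more in every library and DCN was at 0 in sgRosa. It moved the other way in AsPC-1, at 59.8 to 74.0 against 103 to 115 TPM, where only LUM was at 1 TPM or more. The summed level of 6 leukocyte markers was lower in sgKLF5 of T3M-4 (9.65 to 13.3 against 18.2 to 20.3 TPM), AsPC-1 (9.84 to 12.3 against 16.6 to 17.5 TPM), SUIT-2 (6.35 to 8.96 against 18 to 36.8 TPM) and CFPAC-1 (39.3 to 44.7 against 46.4 to 130 TPM). Of the 3 endothelial markers, the sum was 5.49 to 10.5 TPM against 4.51 to 4.83 TPM in BxPC-3. The part of these in the result was not tested.

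**Figure D2:**
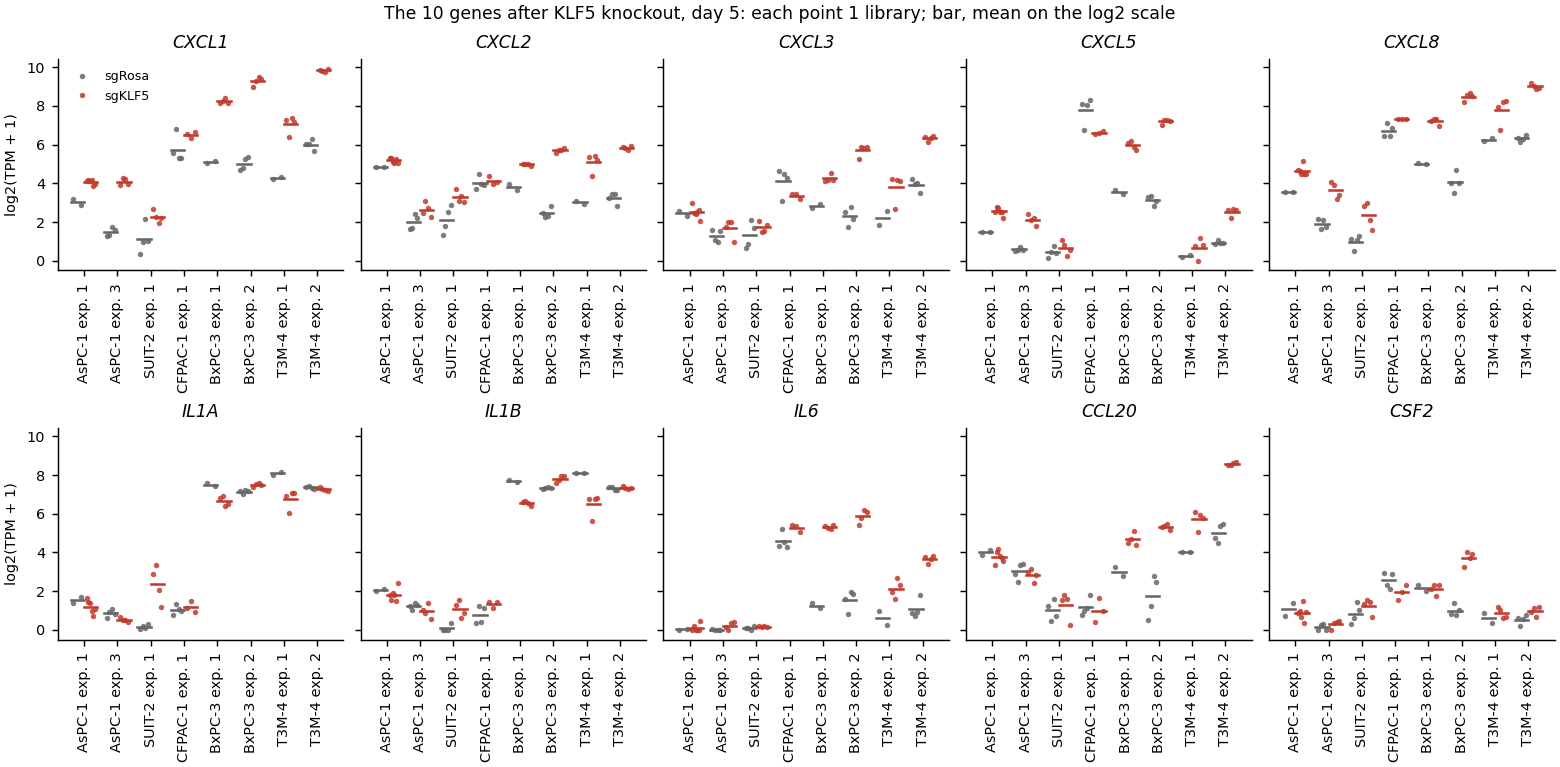
Level of the 10 genes in each sgRosa and sgKLF5 library of the pancreatic lines and experiments, in log2(TPM + 1), 1 point per library. CXCL1 and CXCL8 of sgKLF5 lie above sgRosa in every experiment of BxPC-3, T3M-4 and AsPC-1, while IL1A and IL1B lie below it in the first and not in the later experiments of T3M-4 and BxPC-3.

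The same knockout was measured again in later experiments of 3 lines. In T3M-4 and BxPC-3 more members were called higher there than in the first experiments, and in AsPC-1 fewer. In AsPC-1 3 of 8 members were called, all higher (27.8% of all genes), in T3M-4 7 of 10, all higher (34.6%), and in BxPC-3 10 of 10, all higher (34.6%). The members' median change was 0.52, 2.5 and 3.50, beside 0.02, 0.10 and 0.05 for all genes.

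CXCL1 reached the highest level of any member in any library. In T3M-4 it went from 64.7, 64.1, 76.7 and 50.3 TPM to 936, 889, 875 and 969 TPM (3.84 ± 0.11, adjusted p = 8.83e-14), and in BxPC-3 from 25.3, 26.7, 36.8 and 40.01 TPM to 508, 616, 710 and 665 TPM (4.25, adjusted p = 4e-11). In AsPC-1 it went from 1.42, 1.56, 2.32 and 1.98 TPM to 14.1, 18.5, 17.6 and 14.5 TPM (2.61 ± 0.16, adjusted p = 6.82e-10). In none of the 3 lines did the groups come near each other. CXCL8 went from 81.4, 69.8, 78.2 and 88.2 TPM to 586, 529, 476 and 487 TPM in T3M-4 (2.70, adjusted p = 3.7e-12). In BxPC-3 it went from 15.1, 10.5, 24.9 and 15.4 TPM to 293, 377, 402 and 365 TPM (4.42, adjusted p = 1.94e-11). In AsPC-1 the step was smaller, from 2.14 to 3.55 TPM up to 8.22 to 15.6 TPM (1.72 ± 0.21, adjusted p = 3.55e-06).

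CXCL2, CXCL3 and CXCL5 rose with them in T3M-4 (2.6, 2.41 and 1.59) and in BxPC-3 (3.24, 3.42 and 4.04), and CXCL5 in AsPC-1 (1.54). CXCL5 of BxPC-3 went from 8.92, 9.37, 6.23 and 7.58 TPM to 129, 153, 155 and 147 TPM. IL6 rose in T3M-4 from 0.838, 0.629, 0.910 and 2.48 TPM to 12.8, 9.51, 11.5 and 13.2 TPM (2.59, adjusted p = 5.91e-08) and in BxPC-3 from 0.777 to 2.94 TPM up to 42.4 to 72.6 TPM (4.32, adjusted p = 2.55e-10). CCL20, which recruits CCR6-bearing lymphocytes, rose in T3M-4 from 25.7, 21.6, 40.8 and 43.4 TPM to 372, 360, 388 and 411 TPM (3.56) and in BxPC-3 from 0.427 to 5.98 TPM up to 35 to 43 TPM (3.58). CSF2 rose in BxPC-3, from 0.764, 1.65, 0.684 and 1.02 TPM to 8.40, 15.3, 12.2 and 14.2 TPM (2.73, adjusted p = 8.32e-07), and differed by 0.43 in T3M-4 (adjusted p = 0.224).

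The IL-1 genes did not fall in these experiments. In T3M-4, IL1A was at 152 to 173 TPM in sgRosa and 143 to 163 TPM in sgKLF5 (−0.09, adjusted p = 0.353), and IL1B at 149 to 169 and 152 to 172 TPM (0.03, adjusted p = 0.742). In BxPC-3 they rose, IL1A from 129 to 149 TPM up to 166 to 191 TPM (0.36, adjusted p = 0.0013) and IL1B from 157 to 168 TPM up to 190 to 249 TPM (0.47, adjusted p = 0.00153).

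The test of the later minus the earlier change bore on this directly. In AsPC-1 1 of 8 members differed (CXCL1, by 1.57 ± 0.23, adjusted p = 7.7e-05, with 4.28% of all genes), in T3M-4 6 of 9 (17.4% of all genes) and in BxPC-3 9 of 10 (16.7%), and each of these was higher in the later experiment. With only the groups compared, CXCL1 (limma adjusted p = 0.0816), CXCL5 (0.0735), CXCL8 (0.123) and IL1A (0.0544) of T3M-4 did not pass. CXCL5 of T3M-4 did not pass with a pseudocount of 0.1 either (adjusted p = 0.198). IL1B differed by 1.66 ± 0.27 in T3M-4 (adjusted p = 0.00078) and by 1.61 ± 0.15 in BxPC-3 (adjusted p = 8.44e-08), and IL1A by 1.2 in both. CXCL8 differed by 1.19 and 2.21. IL6 of BxPC-3 differed by 0.27 ± 0.32 (adjusted p = 0.635), which did not pass. Without either sgRosa library of experiment 1, 2 to 3 of the 9 members of T3M-4 still differed, beside 17.4% of all genes with every library. The sgRosa libraries of the experiments differ in level as well (CXCL1 of T3M-4 at 17.5 to 19.2 TPM in experiment 1 and 50.3 to 76.7 TPM in experiment 2), and experiment cannot be told apart from anything else that changed between them. The summed level of 3 endothelial markers was 18.8 to 28.4 TPM in sgKLF5 of BxPC-3 experiment 2 and 7.87 to 8.46 TPM in sgRosa, with only CDH5 at 1 TPM or more in every library of both, and 7.11 to 10.3 against 3.22 to 5.84 TPM in T3M-4 experiment 2. In AsPC-1 experiment 3 the leukocyte sum was 6.91 to 8.99 TPM in sgKLF5 and 11.2 to 12.6 TPM in sgRosa. Their part in the result was not tested.

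Knockout of RUVBL1 or RUVBL2 raised most members in T3M-4, IL1B among them, and few or none in CFPAC-1. After RUVBL1 knockout 9 of 10 members rose in T3M-4 (60.5% of all genes were called), 1 of 10 in BxPC-3 (16% of all genes), and none of 9 was called in CFPAC-1 by limma (43.8% of all genes), where 2 of 9 had an unadjusted p under 0.05. In AsPC-1 2 members rose and 1 fell of 7 in experiment 2 (55.8%), and 3 rose of 8 in experiment 3 (51.9%). After RUVBL2 knockout 5 of 8 rose in AsPC-1 (43.2% of all genes), 9 of 10 in T3M-4 (54.5%), 5 of 10 in BxPC-3 (9.76%) and 0 of 9 by limma in CFPAC-1 (12.1%), where 2 of 9 had an unadjusted p under 0.05. Without CSF2, which reached the filter in T3M-4 only through the knockout, 8 of 9 rose there after either knockout. Without CFPAC-1 sgRosa replicate 4, 3 of 9 members were called after RUVBL1 knockout, 1 higher and 2 lower, and 2 of 9 after RUVBL2 knockout, 1 higher and 1 lower. Without sgRosa replicate 2, 1 member was lower after RUVBL1 and 0 were called after RUVBL2 knockout. These counts were not set against all genes in the same refits. With every library 43.8% and 12.1% of all genes were called. The members' median change was 1.04 and 0.94 in T3M-4, beside 0.25 and 0.19 for all genes, and in AsPC-1 the share of members called was below that of all genes after RUVBL1 and above it after RUVBL2 knockout.

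CXCL8 of T3M-4 went from 69.8 to 88.2 TPM in sgRosa to 279, 198 and 200 TPM in sgRUVBL1 (1.48, adjusted p = 2.32e-08) and 198, 222, 203 and 192 TPM in sgRUVBL2 (1.35, adjusted p = 2.25e-08). In AsPC-1 experiment 2 it went from 8.52, 8.01, 8.91 and 7.65 TPM to 19.4, 18.9, 18.5 and 16.9 TPM in sgRUVBL1 (1.07, adjusted p = 2.19e-07). In AsPC-1 experiment 3 it rose in sgRUVBL1 (0.80) and in sgRUVBL2 (1.78), and in BxPC-3 in sgRUVBL2, from 10.5 to 24.9 TPM up to 44.9, 38 and 41.8 TPM (1.34, adjusted p = 0.00129). Outside CFPAC-1, CXCL8 rose in 6 of the 7 RUVBL1 and RUVBL2 comparisons.

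CXCL1 rose by only 0.81 and 1.07 in T3M-4, to 117, 111 and 108 TPM in sgRUVBL1 and 137, 125, 129 and 146 TPM in sgRUVBL2, and by 0.85 in sgRUVBL2 of AsPC-1. CCL20 rose by 1.41 and 1.34 in T3M-4 and by 1.21 in sgRUVBL2 of AsPC-1, where it went from 4.65 to 9.51 TPM up to 15.2 to 24.3 TPM. CXCL2 rose by 1.18 in sgRUVBL1 of T3M-4 and fell by 0.42 in that of AsPC-1 experiment 2 (adjusted p = 0.012), from 16.7 to 25.4 TPM down to 13.6 to 15.8 TPM. In BxPC-3 IL6 was the 1 member called after RUVBL1 knockout, at 6.30, 5.57, 5 and 3.07 TPM against 0.777 to 2.94 TPM (0.99, adjusted p = 0.00719). CSF2 of T3M-4 was at 0.336 to 3.33 TPM in sgRUVBL1 and 0.152 to 0.686 TPM in sgRosa, with overlapping groups, and its call in sgRUVBL1 was lost without a filter (adjusted p = 0.0544).

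IL1B, made as a precursor that caspase-1 cleaves, went from 149 to 169 TPM in T3M-4 sgRosa to 328, 281 and 290 TPM in sgRUVBL1 (0.91 ± 0.07, adjusted p = 2.08e-08) and 262, 297, 302 and 279 TPM in sgRUVBL2 (0.84, adjusted p = 1.82e-08). Its neighbour IL1A differed by 0.16 and 0.07 and was not called. In BxPC-3 sgRUVBL2, both rose, by 0.39 (IL1A) and 0.53 (IL1B), and in AsPC-1 experiment 3 IL1A rose by 0.54 in sgRUVBL1 and 0.93 in sgRUVBL2. When only sgRUVBL2 and sgRosa of BxPC-3 were fitted, none of the 5 members called there passed. Markers of other cells moved in T3M-4 as well. The leukocyte sum was 27.6 to 30.9 TPM in sgRUVBL1 and 24.6 to 29.2 TPM in sgRUVBL2 against 15.1 to 17.3 TPM in sgRosa, with CD3E at 1 TPM or more in every library of both knockouts. The fibroblast sum was 38.9 to 46.3 and 41.7 to 46.8 TPM against 22.6 to 33.5 TPM, and the endothelial sum 8.89 to 9.97 and 8.71 to 13.1 TPM against 3.22 to 5.84 TPM. In BxPC-3 the endothelial sum was 8.71 to 13.7 and 9.11 to 13.8 TPM against 7.87 to 8.46 TPM. It was 46.6 to 53.8 TPM in sgCDK1 and 7.22 to 7.48 TPM in sgRPA3 of that experiment. Their part in the result was not tested.

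RUVBL1 and KLF5 knockout were compared in the same fits. Of the members tested, 2 were higher and 3 lower after RUVBL1 than after KLF5 knockout in AsPC-1 (58.5% of all genes differed), 2 higher and 7 lower in T3M-4 (45.8%), 0 higher and 9 lower in BxPC-3 (44%), and 2 higher and 3 lower in CFPAC-1 (30.9%). CXCL1 was lower after RUVBL1 knockout in all 4, by −2.53, −3.02, −4.68 and −1.38 in this order. CXCL8 was lower as well, by −0.92, −1.21, −4.11 and −0.77. IL1B was higher in AsPC-1 (0.75) and T3M-4 (0.88 ± 0.07, adjusted p = 2.32e-08) and differed by −0.18 ± 0.10 in BxPC-3 (adjusted p = 0.166). CXCL5 of CFPAC-1, which fell after KLF5 knockout, was higher by 1.66 after RUVBL1 knockout, at 283 to 340 TPM against 91.7 to 103 TPM. In the repeat of RUVBL1 knockout in AsPC-1, the later minus the earlier change was called for 0 of 8 members by limma, and 0 of 8 had an unadjusted p under 0.05 (18.2% of all genes differed).

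**Figure D3:**
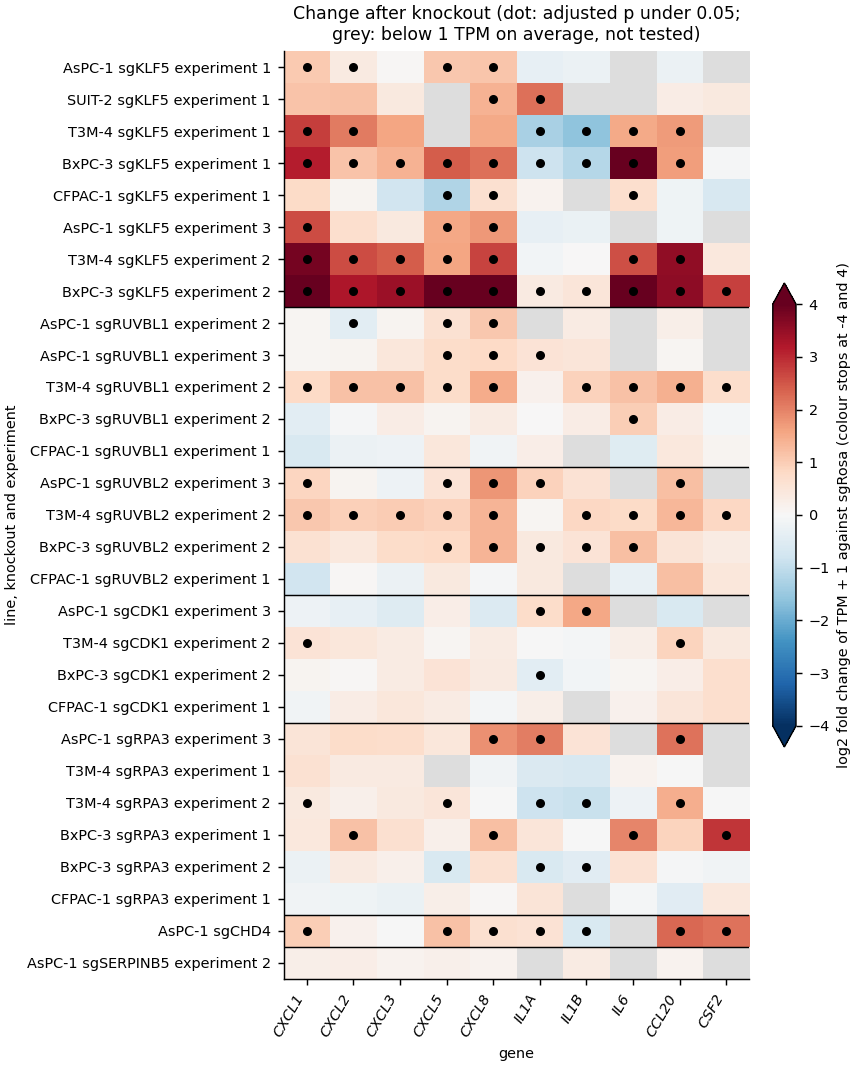
Change of each of the 10 genes against sgRosa of the same line and experiment in each knockout, as a log2 fold change of TPM + 1 with the colour scale ending at −4 and 4. The sgKLF5 rows of T3M-4 and BxPC-3 hold the strongest rises (CXCL1 at 2.78 to 4.25), and 4 of the 5 CFPAC-1 rows hold no member that was called.

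CDK1 and RPA3, genes of the cell cycle and of DNA replication, serve as controls for loss of a gene that dividing cells need. After CDK1 knockout 2 of 8 members rose in AsPC-1 (16.7% of all genes called), 2 of 10 in T3M-4 (16.8%) and 0 in BxPC-3, where 1 of 10 fell (5.82%), and for the CFPAC-1 libraries labelled sgCDK1 0 of 9 were called by limma (0% of all genes, with 1477 genes and 1 of 9 members at an unadjusted p under 0.05). After RPA3 knockout 3 of 8 rose in AsPC-1 (0.654% of all genes), 4 of 10 in BxPC-3 experiment 1 (0.307%) and 3 of 10 in T3M-4 experiment 2, where 2 fell (24.6%). In BxPC-3 experiment 2, 3 of 10 fell (20.8%). In T3M-4 experiment 1, 0 of 8 were called by limma (0% of all genes, with 189 genes and 0 of 8 members at an unadjusted p under 0.05), and for the CFPAC-1 libraries labelled sgRPA3 0 of 9 (11.6% of all genes, 1 of 9 members at an unadjusted p under 0.05). In that T3M-4 fit RPA3 itself was not called (−1.40, adjusted p = 0.943). It was at 22.1 to 25.6 TPM in sgRPA3 and 62.3 to 66.3 TPM in sgRosa. The lack of member calls there thus cannot tell whether the members changed.

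In AsPC-1 sgRPA3 the calls fell on 3 of these genes among 80 in the whole transcriptome. CCL20 was at 37.3 and 35 TPM against 4.65 to 9.51 TPM in sgRosa (2.19, adjusted p = 7.89e-05), IL1A at 5.70 and 7.28 TPM against 0.555 to 1.09 TPM (2.04, adjusted p = 2.73e-06), and CXCL8 at 11.8 and 13.3 TPM against 2.14 to 3.55 TPM (1.83, adjusted p = 0.00066). In BxPC-3 sgRPA3 of experiment 1, where 38 genes were called, CSF2 was at 40.1 and 24.9 TPM against 4 and 3.02 TPM (2.86, adjusted p = 0.00226) and IL6 at 8.79 and 7.49 TPM against 1.6 and 1.17 TPM (1.94, adjusted p = 0.00158). CSF2 in sgRPA3 of BxPC-3 experiment 2 was at 0.407 and 1.32 TPM, within the sgRosa range. The same label thus went with a different level of CSF2 in the 2 experiments, each with 2 sgRPA3 libraries. IL1A was lower in sgRPA3 of T3M-4 (92.4 and 89.4 against 152 to 173 TPM, −0.84) and of BxPC-3 experiment 2 (−0.62), and IL1B with it (−0.88 and −0.44). In AsPC-1 sgCDK1, IL1B was at 6.82 and 5.08 TPM against 1.03 to 1.65 TPM (1.55, adjusted p = 0.00342).

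Against the mean of sgCDK1 and sgRPA3, RUVBL1 knockout gave higher levels of 8 of 10 members and lower of none in T3M-4 (41.8% of all genes differed), higher of 2 of 10 in BxPC-3 (20.4%), lower of 2 of 8 in AsPC-1 (51.2%) and, with the libraries labelled sgCDK1 and sgRPA3, lower of 1 of 9 in CFPAC-1 (55.4%). In T3M-4 the largest of these were IL1B (1.39 ± 0.07, adjusted p = 3.9e-10) and CXCL8 (1.32 ± 0.11). CCL20 differed by 0.23 ± 0.19 there (adjusted p = 0.343), since sgRPA3 had raised it too, to 73.9 and 107 TPM. In BxPC-3 the members called were IL1A (0.51) and IL1B (0.57), and in AsPC-1 IL1A (−0.85) and CCL20 (−0.72).

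CHD4, a remodeller of the NuRD complex, was knocked out in AsPC-1 with its own 4 sgRosa libraries. Of 9 members tested, 6 rose and 1 fell (50% of all genes called), and the members' median change was 0.65, beside −0.03 for all genes. CCL20 went from 9.28, 8.58, 9.28 and 5.68 TPM to 43.3, 45, 40.3 and 47.7 TPM (2.31, adjusted p = 6.12e-08). CSF2 was at 0.638, 0, 0.597 and 0.546 TPM in sgRosa and at 4.39, 7.66, 5.39 and 4.72 TPM in sgCHD4, through which alone it reached the filter, and without it 5 of 8 members rose and 1 fell. Neither gene's groups overlapped. CXCL5 rose by 1.16, CXCL1 by 1.00, CXCL8 by 0.65 with overlapping groups, and IL1A by 0.56, while IL1B fell by 0.62. The 6 leukocyte markers summed to 67.1 to 79.6 TPM in sgCHD4 and 39.5 to 41.3 TPM in sgRosa, CD14 and LYZ were at 1 TPM or more, and CD3E was at 0 in both groups, and their part in the result was not tested. After SERPINB5 knockout in AsPC-1, with SERPINB5 at 61.0 to 79.8 TPM against 168 to 200 TPM, limma called 0 of 7 members (0.0343% of all genes), and 1 of 7 members and 802 genes had an unadjusted p under 0.05.

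Against the 3 pooled DMSO libraries, EV cells with CB-6644 had lower levels of several chemokines in T3M-4 and higher levels of some in AsPC-1. Against the EV DMSO library alone, the AsPC-1 changes were −0.15 (CXCL1), −0.45 (CXCL2), 0.18 (CXCL3), 0.45 (CXCL5), 0.05 (CXCL8) and −0.06 (CCL20). In EV cells against the 3 DMSO libraries, 5 of 9 members fell in T3M-4 (34.3% of all genes called), while 4 of 8 rose in AsPC-1 (64.4%). The members' median change was −0.52 and 0.47, beside 0.04 and 0.19 for all genes. The comparison depends on which DMSO libraries are the control.

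In T3M-4, CXCL8 was at 23.9 TPM in the DMSO library of EV cells, 103 TPM in that of A62T cells and 71.2 TPM in that of dF109 cells, and at 15.9, 13.9 and 18.3 TPM in EV cells with CB-6644 (−1.76 against the pooled DMSO, adjusted p = 0.00498). CXCL1 was at 27.2, 54.8 and 46.3 TPM in the DMSO libraries in the same order and at 16.7, 15 and 11.3 TPM in EV cells with CB-6644 (−1.47, adjusted p = 0.000364). EV cells with CB-6644 were lowest in both genes. CXCL2 fell by 1.15, CXCL3 by 1.19 and CCL20 by 0.44. Against the EV DMSO library alone, with the spread of the other groups taken for the lone library, 1 member rose and 3 fell of 9 in T3M-4 (36.2% of all genes). CXCL1 fell by 0.90 (adjusted p = 0.00304), CXCL3 by 0.58 and CXCL8 by 0.56 (adjusted p = 0.0423). IL1B, which had not been called against the pooled DMSO, rose by 0.80 (adjusted p = 0.000446), from 34.8 TPM to 57.6, 58.6 and 68.2 TPM.

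In AsPC-1, IL1A was at 16.6 TPM in the DMSO library of EV cells but at 5.15 and 2.33 TPM in those of A62T and dF109 cells, and at 21.5, 20.2 and 22.1 TPM in EV cells with CB-6644 (1.65 against the pooled DMSO, adjusted p = 0.00341). CXCL5 rose by 0.93, to 3.46, 3.16 and 4.03 TPM from 0.938 to 2.32 TPM, and CXCL3 (1.15) and CXCL8 (0.50) rose with overlapping groups. Against the EV DMSO library alone, 1 of 8 members was called (49% of all genes), IL1A, by 0.34 (adjusted p = 0.0233). The DMSO libraries of the constructs already lay apart before treatment in IL1A.

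Against the 3 pooled DMSO libraries, few members were called in A62T and dF109 cells. In AsPC-1 0 of 8 were called in A62T cells by limma, and 0 of 8 had an unadjusted p under 0.05 (12.7% of all genes called), and 1 of 8 fell in dF109 cells (CCL20, by 0.44; 33.4%). In T3M-4 1 of 9 rose in A62T cells (50%) and 1 of 9 in dF109 cells (37.6%), IL1A in both by 0.59 (adjusted p = 0.0326 and 0.0399). It was at 95.6, 195 and 163 TPM in the DMSO libraries of EV, A62T and dF109 cells, and at 214, 229 and 212 TPM with CB-6644 in A62T cells. The call in A62T cells thus included the low EV library among its controls, and with the pooling of DMSO libraries changed these counts changed too: 4 of 9 rose in A62T cells of T3M-4 without their own DMSO library. This last count was not set against all genes in the same refit, and with every library 50% of all genes were called. Against the variant's own DMSO library alone, limma called 0 of 8 members in A62T cells of AsPC-1, where 0 had an unadjusted p under 0.05 (0.0408% of all genes called), and 0 of 9 in those of T3M-4, where 1 did (1.22%). In dF109 cells the same control gave 1 of 8 members in AsPC-1 (43.8% of all genes), CXCL3, higher by 0.64 (adjusted p = 0.0279), while CCL20 was no longer called (−0.17, adjusted p = 0.18). In dF109 cells of T3M-4 it gave 3 of 9 (39.3%), with IL1A (0.42, adjusted p = 0.032) and IL1B (0.33, adjusted p = 0.0262) higher and CXCL1 lower (−0.46, adjusted p = 0.0474).

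With CB-6644 present, EV cells of AsPC-1 had higher levels than A62T cells for 6 of 8 members (51.1% of all genes differed) and than dF109 cells for 8 of 8 (47.2%). EV cells of T3M-4 had lower levels than A62T cells for 9 of 9 members (50.6%) and than dF109 cells for 8 of 9 (34.6%). IL1A differed most in AsPC-1, by 1.83 and 2.54, and CXCL8 in T3M-4, by −2.40 and −1.75. When each construct was first set against its own DMSO library, which was chosen after seeing the data, the difference of the changes was called for 0 of 8 members in AsPC-1 against both variants (18.9% and 22.1% of all genes), with 1 member at an unadjusted p under 0.05 in each, and in T3M-4 for 1 of 9 against A62T (3.42%), IL1B by 0.62 ± 0.14 (adjusted p = 0.0451), and for 0 of 9 against dF109 (1.4%), where 1 had an unadjusted p under 0.05. The leukocyte sum was 10.002 to 19.6 TPM in EV cells of T3M-4 with CB-6644, 27.01 to 30.2 TPM in A62T and 25.7 to 28.4 TPM in dF109 cells, and its part in the result was not tested.

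**Figure D4:**
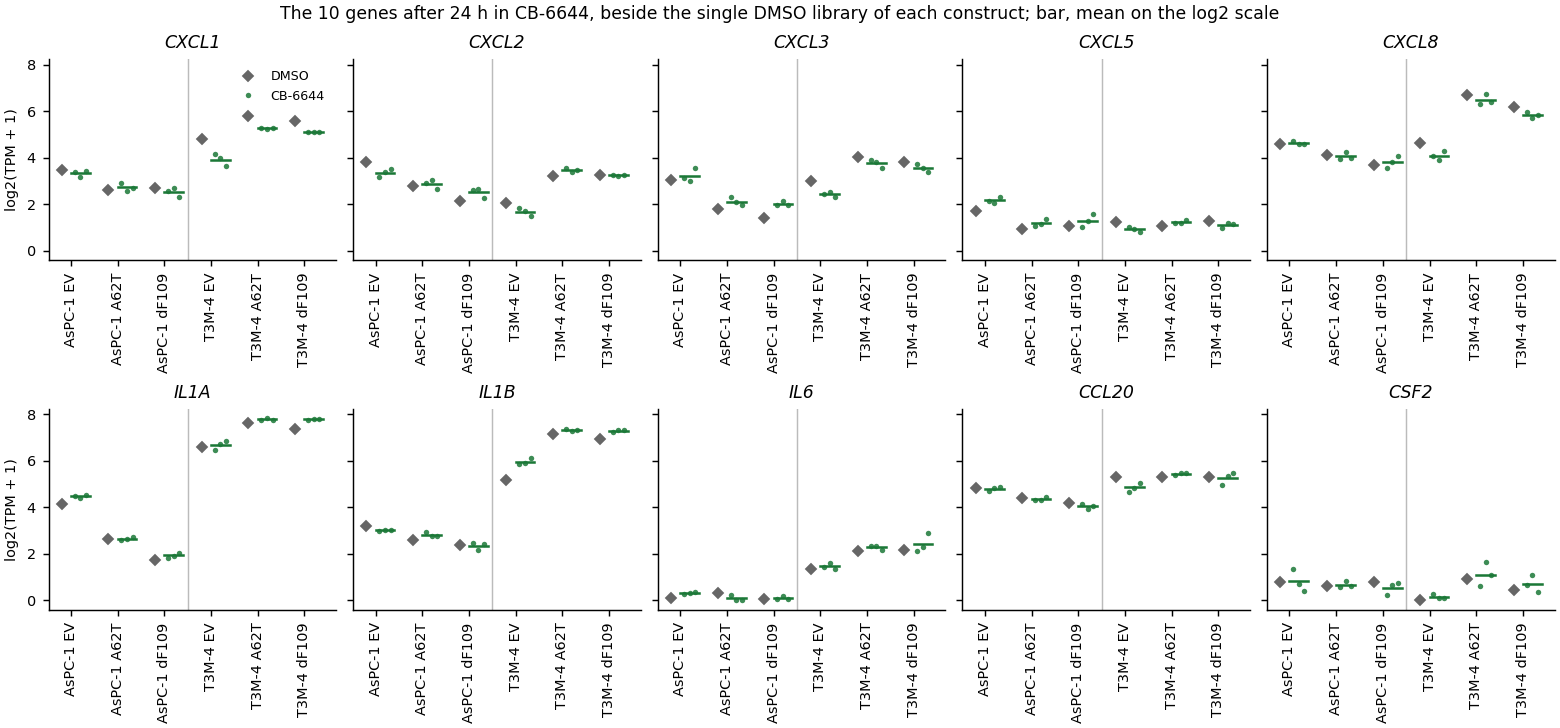
Level of the 10 genes in each DMSO and CB-6644 library of AsPC-1 and T3M-4 cells with EV, A62T or dF109, in log2(TPM + 1), 1 point per library. The lone DMSO libraries of the constructs lie apart, as for CXCL8 of T3M-4 at 23.9, 103 and 71.2 TPM.

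In the lines from other cancers, each with 4 DMSO libraries, CB-6644 went with lower CXCL1 and CXCL8 in T84 and A-375 and lower CXCL8 in H1048, whereas CXCL2 and CXCL3 of A-375 were not called. Most of the transcriptome was called as well. All 5 members tested fell in T84 (71.4% of all genes called), 1 of 8 rose and 2 fell in A-375 (81.1%), 2 of 3 fell in H1048 (77.9%), and 1 rose and 1 fell of 2 in RH30 (77.7%). The members' median change was −1.80, −0.18, −0.71 and 0.39, beside 0.13, 0.16, 0.18 and 0.13 for all genes.

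CXCL1 in T84 went from 14.7, 16.1, 16.8 and 20.3 TPM to 3.99, 4.50, 3.06 and 3.70 TPM (−1.90, adjusted p = 4.99e-10), and in A-375 from 88.8, 78.3, 75.5 and 78.5 TPM to 13.4, 13.6, 16.2 and 15.3 TPM (−2.38 ± 0.07, adjusted p = 9.66e-11). The groups were far apart in both. CXCL8 in T84 went from 23.9, 24.3, 24.7 and 32.8 TPM to 6.39, 6.59, 7.12 and 7.23 TPM (−1.80, adjusted p = 2.04e-10). In H1048 it went from 7.02, 7.58, 9.16 and 8.61 TPM to 1.92, 2.31, 3.08 and 1.4 TPM (−1.54, adjusted p = 8.41e-07). In A-375 CXCL8 fell by only 0.34 where CXCL1 fell by 2.38. CXCL3 fell in T84 (1.98), H1048 (0.71) and RH30 (0.40), each as a decrease on the log2 scale, and CXCL2 fell by 1.39 in T84.

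CCL20 did not follow the CXCL genes. It rose in A-375 from 1.26, 1.67, 1.46 and 1.37 TPM to 3.69, 5.74, 4.55 and 4.57 TPM (1.2, adjusted p = 9.01e-07) and in RH30 from 6.42, 7.15, 6.22 and 7.61 TPM to 16.1, 16.5, 16.8 and 17.6 TPM (1.18, adjusted p = 4.09e-09). In T84 it fell by 0.33 with overlapping groups. Of these lines IL1A and IL1B had enough transcript for the test in A-375 only, and were not called there. IL1A was at 3.41 to 4.59 TPM in DMSO and 3.34 to 3.7 TPM in CB-6644. Without A-375 DMSO replicate 1 or 2, 5 of its 8 members were called, 1 higher and 4 lower (with every library, 81.1% of all genes were called). The leukocyte markers summed to 19.9 to 20.8 TPM with CB-6644 and 11.5 to 14.7 TPM with DMSO in A-375, and 11.3 to 19.4 and 5.9 to 6.33 TPM in H1048, with PTPRC and LYZ at 1 TPM or more in every library of both lines, and their part in the result was not tested.

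**Figure D5:**
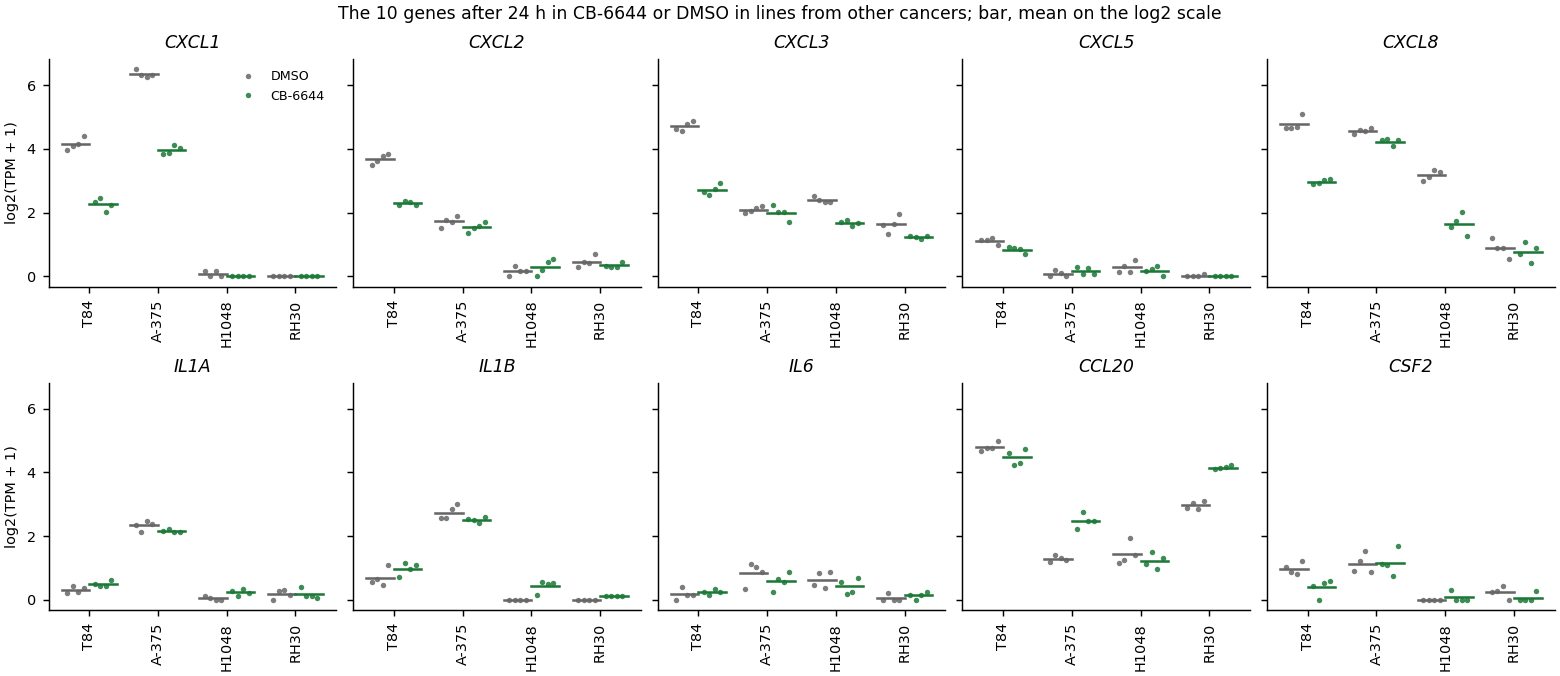
Level of the 10 genes in each DMSO and CB-6644 library of T84, A-375, H1048 and RH30, in log2(TPM + 1), 1 point per library. CXCL1 of T84 and A-375 falls from 14.7 to 88.8 TPM down to 3.06 to 16.2 TPM, while CCL20 of A-375 and RH30 rises.

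The genes around the members were counted from lists of the pathway. The comparisons of a kind share sgRosa libraries in part, and the counts are numbers of gene and comparison pairs called. Counted over all genes tested in the same comparisons, 20.6% of pairs were called for KLF5, 38.7% for RUVBL1 and RUVBL2, 9.83% for CDK1 and RPA3 and 77.2% with CB-6644 in the 4 lines from other cancers, and each list's share can be read beside these. Of the other NF-kappaB targets, 43 were higher and 6 lower of 71 tests over the 8 KLF5 comparisons (69% called), 39 and 7 of 77 over the 9 RUVBL1 and RUVBL2 comparisons (59.7%), 35 and 3 of 91 over the 10 CDK1 and RPA3 comparisons (41.8%), and 15 and 4 of 26 with CB-6644 in the 4 lines from other cancers (73.1%). ICAM1, an adhesion molecule for leukocytes, rose in 6 of 8 KLF5 comparisons (−0.07 to 3.05) and in 6 of 8 RUVBL comparisons (0.11 to 2.1), and the acute-phase gene SAA1 in 6 of 7 KLF5 comparisons (0.40 to 3.69). CFB, a complement factor, rose in 6 KLF5 comparisons (up to 3.75), and LCN2, an iron-binding protein of mucosal defence, rose in 5 and fell in 2 (−1.57 to 3.98). SOD2 rose in all 4 of the other lines with CB-6644 (0.53 to 1.07).

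Of the regulators of IL-1 and NF-kappaB, 33 were higher and 15 lower of 157 tests after KLF5 knockout (30.6% called), 79 and 18 of 177 after RUVBL1 or RUVBL2 knockout (54.8%), 23 and 5 of 198 after CDK1 or RPA3 knockout (14.1%), and 40 and 17 of 76 with CB-6644 in the other lines (75%). NFKBIA, the inhibitor that NF-kappaB itself induces, rose in 5 of 8 KLF5 comparisons (0.06 to 1.1). IL1RN, which encodes the IL-1 receptor antagonist, fell in 4 of 5 (−2.32 to −0.34). NFKBIE, a further inhibitor, rose in 8 of 9 RUVBL comparisons (0.32 to 1.48), and IRAK2, a kinase below the IL-1 receptor, in 7 of 9 (0.07 to 2.02). With CB-6644, NFKBIZ rose in all 4 other lines (0.53 to 0.85), whereas RELB, a subunit of NF-kappaB, fell in all 4 (−0.70 to −0.28).

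Of the receptors, 11 were higher and 4 lower of 40 tests after KLF5 knockout (37.5% called), 10 and 2 of 45 after RUVBL knockout (26.7%), 11 and 1 of 52 after CDK1 or RPA3 knockout (23.1%), and 8 and 3 of 18 with CB-6644 in the other lines (61.1%). IL1R1, the signalling receptor of IL-1, rose in 5 of 8 KLF5 comparisons (0.57 to 3.03) and 3 of 8 RUVBL comparisons. IL6ST, the signalling chain of the IL-6 receptor, rose in 4 of 9 RUVBL comparisons. Of the enzymes and pore proteins that process IL-1, 11 were higher and 12 lower of 46 tests after KLF5 knockout (50%), 6 and 14 of 51 after RUVBL knockout (39.2%), 7 and 2 of 58 after CDK1 or RPA3 knockout (15.5%), and 5 and 8 of 21 with CB-6644 (61.9%). CASP1, the IL-1B convertase, rose in 4 of 6 KLF5 comparisons (up to 1.09), CAPN1, which cleaves IL1A, fell in 5 (−0.65 to −0.16), and the pore protein GSDMD fell in 7 RUVBL comparisons (−0.84 to −0.16).

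Of other cytokines and chemokines, 46 were higher and 15 lower of 107 tests after KLF5 knockout (57% called), 35 and 5 of 121 after RUVBL knockout (33.1%), 22 and 10 of 149 after CDK1 or RPA3 knockout (21.5%), and 21 and 14 of 42 with CB-6644 (83.3%). CSF1, the macrophage growth factor, rose in 6 KLF5 comparisons (0.39 to 2.42) and IL32 in 5 (−0.17 to 3.57), while IL18, another IL-1 family cytokine, fell in 5 (−1.62 to 0.34). IL24 rose in 4 of 4 RUVBL comparisons (0.85 to 1.82). IL11 rose (0.44 to 2.59) and LIF fell (−1.43 to −0.28) in all 4 other lines with CB-6644. The list for AU-rich mRNA held ZFP36, ZFP36L1, ZFP36L2, ZC3H12A, HNRNPD, ELAVL1 and KHSRP, which do not all promote decay. Of these, 3 were higher and 8 lower of 56 tests after KLF5 knockout (19.6%), and 7 and 22 of 63 after RUVBL knockout (46%). The counts were 5 and 4 of 70 after CDK1 or RPA3 knockout (12.9%), and 7 and 20 of 28 with CB-6644 (96.4%). ZFP36L2, which promotes such decay, fell in 4 RUVBL comparisons and in all 4 other lines with CB-6644 (−1.75 to −0.62). In the same 4 lines HNRNPD fell (−1.67 to −0.51), while ZC3H12A rose (0.24 to 0.70). After RUVBL knockout ZFP36 rose in 2 comparisons and fell in 4, and ZFP36L1 rose in 2 and fell in 3.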

How the data were processed

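Messenger RNA was sequenced as poly-A selected libraries with single-end reads. The authors pseudo-aligned the reads to hg38 with kallisto, filtered out transcripts of low abundance by a cutoff they do not state, and deposited gene-level TPM made with tximport. TPM hold no read counts, so the depth is unknown, and only its effect can be described: 11292 to 14024 genes reached 1 TPM per library. All 183 libraries were used, and 0 columns were left out. Groups came from the sample labels.

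From the deposited TPM, log2(TPM + 1) was fitted here with R 4.3.3 and limma 3.58.1, using its moderated statistics with a mean-variance trend. Each line and experiment had 1 fit, over the 11645 to 13715 genes whose mean reached 1 TPM. P-values were adjusted by Benjamini-Hochberg over all genes tested (threshold 0.05) in 65 comparisons. The scripts were tested on simulated data. The named genes are the 10 members and, per pathway list and kind of comparison, up to 4 genes called most often. For likeness they are the 5 genes best correlated with the member of highest control level. The members and lists (receptors, IL-1 and NF-kappaB control, other NF-kappaB targets, other cytokines and chemokines, decay of AU-rich mRNA, interleukin-1 processing, cell markers) were chosen with earlier results of these data known. Alternatives changed the pseudocount (0.1), the filter (none, or 5 TPM on average), the scaling (median of ratios), the groups fitted (just those compared), the block (replicate number), the libraries (each omitted in turn) or the DMSO control (the construct's own).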

Additional observations from a re-analysis of the deposited data

Results flagged for a closer look

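Within groups of 4 to 10 libraries, 15 of 218 pairs of member and group had 1 library farther from the others than Dixon's 95% limit allows, and chance alone gives about 1 in 20. The gap of that library to its nearest neighbour is given as a share of the group's range. T3M-4 experiment 1 sgKLF5 replicate 2 was low in CXCL3 (0.929), IL1A (0.8645) and IL1B (0.9551), and was also the library with low KLF5. CFPAC-1 sgRosa replicate 2 stood apart in CXCL1 (0.8293) and CXCL5 (0.8353), on the side of sgKLF5 in both. The sgKLF5 libraries gave CXCL8 of AsPC-1 experiment 1 replicate 4 (0.6427), CXCL3 of BxPC-3 experiment 2 replicate 1 (0.9292), CXCL5 of T3M-4 experiment 2 replicate 2 (0.9467) and CCL20 of SUIT-2 replicate 4 (0.8482). Among other knockout and control libraries these were CCL20 in sgRosa replicate 4 of the CHD4 experiment (0.8376), CXCL3 in AsPC-1 sgSERPINB5 replicate 3 (0.8402), IL1B in BxPC-3 experiment 2 sgRosa replicate 3 (0.8301) and CSF2 in BxPC-3 sgRUVBL1 (0.8905). With the inhibitor they were CXCL8 in T84 DMSO replicate 4 (0.904) and CXCL8 in A-375 CB-6644 replicate 3 (0.8564).

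The change after KLF5 knockout differed between experiments of the same line by a tested interaction term. It was larger in the later experiment by 1.57 for CXCL1 in AsPC-1. In T3M-4 the terms were 1.06 for CXCL1, 1.17 for CXCL5, 1.19 for CXCL8, 1.2 for IL1A, 1.66 for IL1B and 1.85 for CCL20. In BxPC-3 they were 1.11 for CXCL1, 2.09 for CXCL2, 2.01 for CXCL3, 1.61 for CXCL5, 2.21 for CXCL8, 1.2 for IL1A, 1.61 for IL1B, 1.93 for CCL20 and 2.78 for CSF2. Of the T3M-4 terms, those of CXCL1, CXCL5, CXCL8 and IL1A did not pass with only the groups compared. The change of IL1B with CB-6644 in T3M-4 differed between EV and A62T cells by 0.622, each against its own DMSO library.

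Some members moved in opposite directions in different lines, with every library of each group beyond its controls. The difference was not tested in these cases. CXCL5 changed by 1.06 in AsPC-1, 2.43 in BxPC-3 and −1.2 in CFPAC-1 after KLF5 knockout in experiment 1. IL1A changed by −1.29 in T3M-4 and −0.841 in BxPC-3 after the same knockout. Its change of 2.2 in SUIT-2 is a description only, because there it reached the filter only through sgKLF5 (sgRosa mean 0.13 TPM) and had to differ. CXCL2 changed by −0.418 in AsPC-1 experiment 2 and 1.18 in T3M-4 after RUVBL1 knockout. IL1A changed by 0.726 in AsPC-1 and −0.406 in BxPC-3 after CDK1 knockout. After RPA3 knockout IL1A changed by 2.04 in AsPC-1, −0.839 in T3M-4 experiment 2 and −0.62 in BxPC-3 experiment 2, and CXCL5 by 0.471 in T3M-4 and −0.601 in BxPC-3, both in experiment 2.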

How the results depend on the processing

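Of 218 member changes called, 215 kept direction and call with a pseudocount of 0.1, 206 without a filter, 204 under median-of-ratios scaling and 169 of 170 at a mean of 5 TPM or more. With only the groups compared 192 of 216 kept theirs, and no direction turned. Leaving out 1 library kept 1481 of 1637 calls and turned none. The cause of the changes was not tested.

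With the stricter mean of 5 TPM fewer genes were tested, and the members called went from 16 to 10 for RUVBL1, from 5 to 3 for CDK1 and from 7 to 4 for CHD4. With only the groups compared, calls went from 5 to 3 for CDK1 and from 3 to 0 for CB-6644 in variant cells, which went to 5 with median-of-ratios scaling, all lower. With the EV DMSO library alone as control, calls in EV cells went from 9 to 5. Against each construct's own DMSO library, an alternative chosen after seeing the data, the calls between EV and variant cells went from 31 to 1. There, 9 differences turned: in AsPC-1 against A62T CXCL1 (−0.26), CXCL3 (−0.14) and CCL20 (−0.018), against dF109 CXCL2 (−0.84), CXCL3 (−0.46), CXCL8 (−0.10) and IL1B (−0.13), and in T3M-4 IL1B against A62T (0.62) and dF109 (0.47).

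Leaving out 1 library gave 19 to 27 calls (24 with all) for KLF5 in experiment 1, 20 to 21 (20) in the later ones, 15 to 19 (16) for RUVBL1, 18 to 21 (19) for RUVBL2, 3 to 6 (5) for CDK1, 13 to 16 (15) for RPA3, 7 to 7 (7) for CHD4 and 0 to 0 (0) for SERPINB5. It gave 8 to 13 (9) for CB-6644 in EV cells, 2 to 8 (3) in variant cells, 12 to 14 (12) in the other cancers and 28 to 30 (31) between EV and variant cells. Between RUVBL1 and KLF5 knockout it gave 27 to 29 (28), between RUVBL1 and the CDK1 and RPA3 knockouts 11 to 14 (13), and between experiments 12 to 17 (16). Without the EV DMSO library, 8 members were called in EV cells of AsPC-1, all higher, and 8 in EV cells of T3M-4, all lower. The control then held only the DMSO libraries of A62T and dF109 cells. These counts were not set against all genes in the same refit, and with all libraries 64.4% and 34.3% of all genes were called. The CFPAC-1 call of IL6 after KLF5 knockout was lost without any 1 of 6 libraries.

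Replicate numbers did not pair the samples, since deviations of libraries with the same number were not correlated in every pair of any comparison. With the replicate block, calls were 23 for KLF5 in experiment 1, 20 later, 18 for RUVBL1, 18 for RUVBL2, 5 for CDK1, 15 for RPA3, 7 for CHD4, 12 in other cancers, 29 between EV and variant cells, 28 between RUVBL1 and KLF5, 12 between RUVBL1 and the CDK1 and RPA3 knockouts and 19 between experiments. No paired analysis was possible because EV and variant cells in DMSO have 1 library each and share fewer than 2 numbers with CB-6644.

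Depth is unknown and low transcripts are the weakest: SUIT-2 CXCL8 and other members near 1 TPM can change call with 1 library, and members under the filter were not tested.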
